A study of Mus musculus with 6 samples.

Results

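The 10 genes described here, Zmat3, Ccng1, Trp53inp1, Mdm2, Sesn1, Sesn2, Phlda3, Bax, Aen and Eda2r, are direct transcriptional targets of p53 other than Cdkn1a (p21). They were chosen by name as p53 targets, and all 10 were found by symbol among the 55414 gene identifiers of the count table. RNA was sequenced from C2C12 cells, a line of mouse myoblasts that is wild type by label, after lipofectamine transfection of an siRNA against Usf2 (siUsf2 1 to 3) or of a negative-control siRNA (siControl 1 to 3). Usf2 encodes a transcription factor that binds E-box sequences as a dimer, and the series set out to find the genes that its knockdown affects. The labels give no time of harvest and do not say whether libraries of a group came from separate cultures, so p-values measure the spread between these libraries, which may be technical.

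p53 is a transcription factor that is held at low levels by the ubiquitin ligase Mdm2 and accumulates after DNA damage and other stress. It binds pairs of a short half-site near its targets and raises genes that arrest the cell cycle, repair DNA, restrain growth signalling or drive apoptosis, and it also raises Mdm2 and other genes that limit p53 itself. In myoblasts, p53 has been linked to exit from the cell cycle and to differentiation, while p21 can also be raised there by MyoD without p53. Neither p53 protein nor its binding was measured in this series.

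Total counts were 15817183, 14932880 and 3414565 in siUsf2 1 to 3, and 14790997, 16006492 and 17715250 in siControl 1 to 3. The library labelled siUsf2 3 stood apart, with the lowest depth, 0.974% of counts on pseudogenes against 14.0% to 15.3% in the other 5, and a Usf2 level of 30.8 CPM (counts scaled to the same library total), against 17.1 and 15.3 CPM in siUsf2 1 and 2 and 23.0 to 31.2 CPM in siControl. Its level on the Usf2 gene alone goes against its label. The pseudogene Usf2-ps1 held 66, 61 and 0 counts in siUsf2 1 to 3 and 97, 152 and 75 counts in siControl 1 to 3. The Usf2 levels above do not include those counts. Each result is therefore given in siUsf2 1 and 2 against siControl (5 libraries) and with siUsf2 3 included (6 libraries), and siUsf2 3 is also shown by itself. In the 5 libraries Usf2 fell by 0.74 in log2 units (edgeR adjusted p = 6.43e-04, SE 0.14). In all 6 its log2 fold change was -0.40 (edgeR adjusted p = 0.702, SE 0.28). The Usf2 level of siUsf2 3 was part of why that library was set apart, so the 5-library p-value for Usf2 is not independent of that choice. All 6 myoblast markers examined had counts in every library. They summed to 2118 and 2168 CPM in siUsf2 1 and 2, below every siControl library (2670 to 3216 CPM). In siUsf2 3 they summed to 3001 CPM. The 10 markers of other cell types summed to 2.61 to 4.30 CPM in siUsf2 and 2.60 to 4.69 CPM in siControl, with the macrophage marker Adgre1 and the keratinocyte marker Krt5 at 0 throughout.

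In the 5 libraries 3 of the 10 genes rose in siUsf2, Zmat3, Ccng1 and Trp53inp1, by 1.47- to 1.52-fold, and none fell by the same test. A gene was called where edgeR's adjusted p over all 17217 genes tested was below 0.05, and 4.97% of all genes tested were called higher and 6.4% lower (855 and 1102 genes, against 1124 and 900 with upper-quartile normalization). All 10 genes passed the filter on low counts. The median over the 10 was 0.06 on the log2 scale, against -0.01 over all genes tested. At an unadjusted p below 0.05, 4 of the 10 were higher and 1 lower, against 4290 of all 17217 genes in either direction. DESeq2 and limma-voom each called 3 of the 10, all of them higher, against 1663 and 1799 of all genes in either direction. The edgeR count over all genes, 1957 in either direction, was 868 without siUsf2 1, 1171 without siUsf2 2, 1055 without siControl 1, 1144 without siControl 2 and 3560 without siControl 3. Zmat3, Ccng1 and Trp53inp1 were called in each of these, and without siControl 3 Mdm2 was also called higher and Phlda3 lower. In bulk RNA a change in the share of cells that express a gene and a change in RNA per cell cannot be told apart.

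With all 6 libraries none of the 10 passed in either direction, against 0.0% of all genes called higher and 0.042% called lower among 16662 genes tested. At an unadjusted p below 0.05, 2 of the 10 were higher and 1 lower in that fit, against 1753 of all 16662 genes in either direction. DESeq2 and limma-voom called 0 of the 10, against 706 and 104 of all genes. The biological coefficient of variation was 40.0% with all 6 libraries and 9.25% in the 5.

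**Figure D1:**
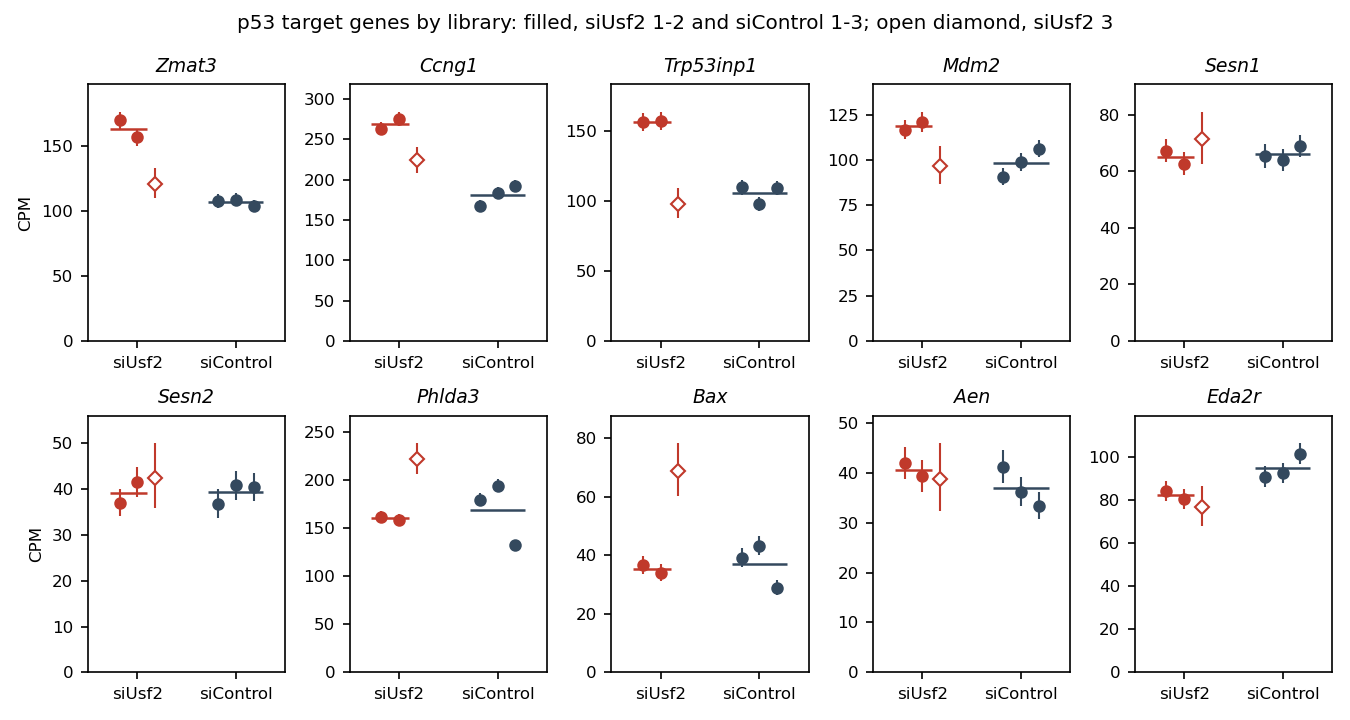
Level in CPM of each of the 10 p53 target genes in every library, siUsf2 on the left and siControl on the right of each panel; bars on points are exact Poisson 95% intervals, which cover counting error only, and horizontal lines are the means of siUsf2 1 and 2 and of siControl 1 to 3. Zmat3, Ccng1, Trp53inp1 and Mdm2 in siUsf2 1 and 2 lie above every siControl library, Eda2r lies below, and the open diamond of siUsf2 3 departs most from the others for Bax at 68.8 CPM.

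The 300-base promoter windows show where the E-box letters CACGTG and the p53 half-site consensus occur at these genes. Windows from RefSeq (GRCm38.p6, 250 bases before to 50 after a start) were matched by symbol for 8 of the 10 genes, 10 windows in all. Those of 4 genes are printed because they hold the start of the called gene Ccng1, of the p53 regulator Mdm2, and of Bax and Eda2r with their E-boxes. Capitals mark every CACGTG and every p53 half-site, both of which read alike on either strand.
Ccng1, chr11:40755237-40755536, minus strand: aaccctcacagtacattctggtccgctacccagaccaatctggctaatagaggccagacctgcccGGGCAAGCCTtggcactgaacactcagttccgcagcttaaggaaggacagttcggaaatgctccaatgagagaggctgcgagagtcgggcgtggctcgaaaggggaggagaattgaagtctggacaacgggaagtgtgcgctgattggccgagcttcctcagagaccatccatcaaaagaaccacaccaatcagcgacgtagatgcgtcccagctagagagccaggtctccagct
Mdm2, chr10:117710709-117711008, minus strand: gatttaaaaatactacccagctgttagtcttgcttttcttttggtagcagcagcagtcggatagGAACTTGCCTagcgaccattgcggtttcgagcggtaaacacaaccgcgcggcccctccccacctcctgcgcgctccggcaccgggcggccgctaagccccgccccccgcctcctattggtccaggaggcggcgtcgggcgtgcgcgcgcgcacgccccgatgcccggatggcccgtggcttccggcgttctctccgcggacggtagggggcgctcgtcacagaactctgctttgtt
Bax, chr7:45466849-45467148, minus strand: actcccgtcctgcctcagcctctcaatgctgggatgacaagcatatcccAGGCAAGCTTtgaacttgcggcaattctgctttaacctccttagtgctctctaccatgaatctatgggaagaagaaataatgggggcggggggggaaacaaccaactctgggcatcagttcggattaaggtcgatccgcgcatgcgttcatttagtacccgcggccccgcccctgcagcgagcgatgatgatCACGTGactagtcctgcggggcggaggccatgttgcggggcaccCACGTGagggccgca
Eda2r, chrX:97377160-97377459, minus strand: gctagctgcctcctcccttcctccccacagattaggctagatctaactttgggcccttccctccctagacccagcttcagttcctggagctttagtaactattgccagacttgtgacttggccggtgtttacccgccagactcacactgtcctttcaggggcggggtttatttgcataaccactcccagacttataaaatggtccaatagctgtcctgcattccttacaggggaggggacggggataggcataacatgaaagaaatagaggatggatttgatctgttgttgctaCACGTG

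In the Ccng1 and Mdm2 windows the capitals are 1 half-site each, with its first base at -185 and -186 relative to the start. The Bax window holds 1 half-site, at -201, and 2 E-boxes, at -9 and +36 relative to the start. The capitals of Eda2r are an E-box at +45. No half-site overlapped an E-box. Across all 32851 promoter windows, 7.15% held an E-box, 0.594% held at least 2, 8.36% held a half-site and 0.0731% held a full p53 element, taken as 2 half-sites with a spacer of 0 to 13 bases. Of the 10 windows of these genes, 3 held an E-box, 6 a half-site and 0 a full element. The third window with an E-box and 2 more with a half-site belong to Aen, whose 2 windows overlap and hold the same half-site. The sixth window with a half-site is 1 of the 2 windows of Sesn1. These are exact matches of letters and not measured binding. A half-site with a base off the consensus was not marked, so 0 full elements does not mean that p53 elements are absent. In Ccng1 the bases agacctgccc, directly before the marked half-site, miss the consensus at 1 base. The p53-responsive start of Mdm2 is known to lie in its first intron, outside the window printed.

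Per base of exon, the 10 genes spanned a wide range in siControl. Phlda3 was highest at 108 ± 20.8 RPKM (CPM per kilobase of exon; SD, n = 3), followed by Ccng1 at 51.6 ± 3.60 and Bax at 23.5 ± 4.69 RPKM. Mdm2 averaged 19.4 ± 1.51 RPKM, and its range overlapped that of Bax. Sesn1, Trp53inp1 and Eda2r, at 16.6 ± 0.640, 16.3 ± 1.04 and 16.1 ± 0.985 RPKM, overlapped each other in range. Sesn2 at 11.3 ± 0.634, Zmat3 at 9.31 ± 0.222 and Aen at 6.35 ± 0.677 RPKM closed the order, each apart from its neighbours in range. The coefficient of variation among siControl libraries was 2.38% for Zmat3 and 19.2% for Phlda3, with Bax slightly above Phlda3 and the other 7 at 3.86% to 10.7%.

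Zmat3 (ENSMUSG00000027663, chromosome 3 at 32334792 to 32366014, minus strand, GRCm38) encodes an RNA-binding zinc-finger protein that acts on splicing and stability of target transcripts downstream of p53. Its level was 169 and 156 CPM in siUsf2 1 and 2, 121 CPM in siUsf2 3 (exact 95% Poisson interval 109.6 to 133, counting error only), and 107, 109 and 104 CPM in siControl 1 to 3. Every siUsf2 library lay above every siControl library, with siUsf2 3 nearest to them. The mean of siUsf2 1 and 2 was 163 ± 9.24 CPM (SD, n = 2), against 106 ± 2.54 CPM in siControl (SD, n = 3). Zmat3 rose in the 5 libraries by 0.60 in log2 units (edgeR adjusted p = 1.03e-05, SE 0.09), and in all 6 its value was 0.46 (edgeR adjusted p = 0.375, SE 0.15).

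The products of Ccng1, Trp53inp1 and Mdm2 act on p53 itself. Ccng1 (ENSMUSG00000020326, chromosome 11 at 40748552 to 40755311, minus strand) encodes cyclin G1, an atypical cyclin that recruits a phosphatase to Mdm2. It was at 263 and 275 CPM in siUsf2 1 and 2, 224 CPM in siUsf2 3 (208 to 240.2), and 168, 184 and 193 CPM in siControl 1 to 3. Again every siUsf2 library was above every siControl library. It rose in the 5 libraries by 0.56 in log2 units (edgeR adjusted p = 3.6e-05, SE 0.09), to 269 ± 8.56 CPM in siUsf2 1 and 2 (SD, n = 2), against 181 ± 12.6 CPM in siControl (SD, n = 3). With all 6 libraries the log2 fold change was 0.46 (edgeR adjusted p = 0.278, SE 0.12).

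Trp53inp1 (ENSMUSG00000028211, chromosome 4 at 11156431 to 11174379, plus strand) encodes a stress-induced nuclear protein that promotes p53 phosphorylation and also takes part in autophagy. It was at 157 CPM in both siUsf2 1 and siUsf2 2, 98.1 CPM in siUsf2 3 (87.9 to 109), and 110.1, 98.1 and 109 CPM in siControl 1 to 3. Here siUsf2 3 sat at the lower end of siControl, well below the other siUsf2 libraries. It rose in the 5 libraries by 0.56 in log2 units (edgeR adjusted p = 4.93e-05, SE 0.09), and in all 6 its value was 0.35 (edgeR adjusted p = 0.656, SE 0.22).

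Mdm2 (ENSMUSG00000020184, chromosome 10 at 117688875 to 117710758, minus strand), the ubiquitin ligase that targets p53 for degradation, was at 117 and 121 CPM in siUsf2 1 and 2, 96.9 CPM in siUsf2 3 (86.8 to 108), and 90.9, 98.7 and 106 CPM in siControl 1 to 3. The levels in siUsf2 1 and 2 lay above siControl and that of siUsf2 3 inside its range. Its 5-library log2 fold change of 0.26 (edgeR adjusted p = 0.0679, SE 0.09) did not pass. It passed without siControl 3 (0.32, edgeR adjusted p = 0.00402) and with upper-quartile normalization (0.29, edgeR adjusted p = 0.0359). In all 6 libraries it was 0.15 (edgeR adjusted p = 0.777, SE 0.13).

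**Figure D2:**
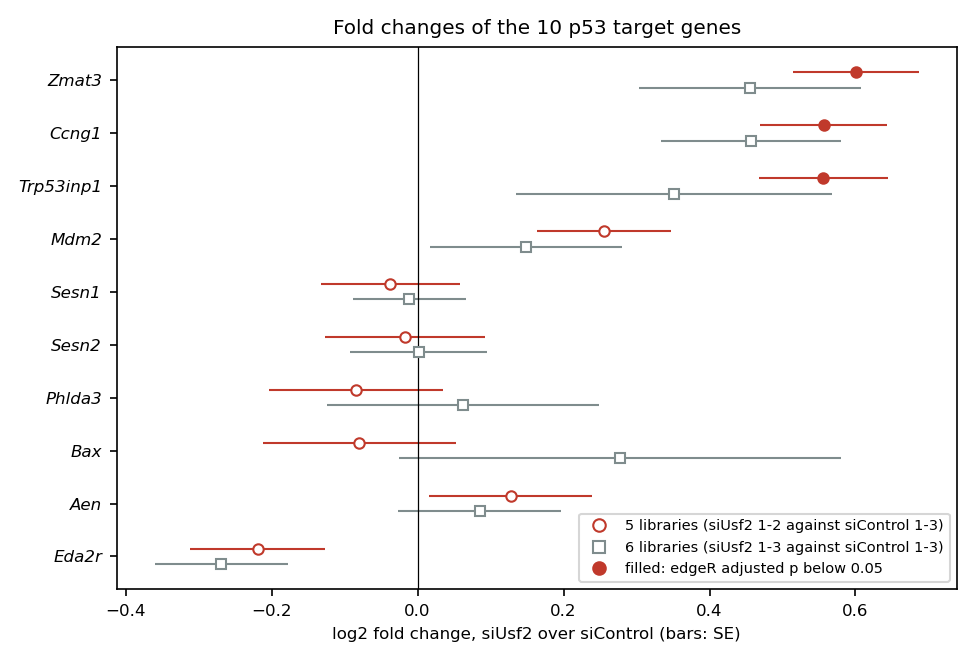
Log2 fold change of siUsf2 over siControl for the 10 genes, with bars of 1 SE; circles are the 5 libraries, squares all 6, and filled symbols have an edgeR adjusted p below 0.05. Zmat3 (0.60), Ccng1 (0.56) and Trp53inp1 (0.56) are the filled circles, no square is filled, and Bax is at -0.080 in the 5 libraries and 0.28 in all 6.

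The sestrins hold back the growth kinase complex mTORC1 by binding GATOR2, and Sesn2 also senses leucine and is raised by ATF4 as well as by p53. Sesn1 (ENSMUSG00000038332, chromosome 10 at 41809935 to 41908424, plus strand) was at 67.1 and 62.7 CPM in siUsf2 1 and 2, 71.5 CPM in siUsf2 3 (62.8 to 81.0), and 65.3, 63.8 and 68.8 CPM in siControl 1 to 3. Sesn2 (ENSMUSG00000028893, chromosome 4 at 132492032 to 132510501, minus strand) was at 37.0 and 41.5 CPM in siUsf2 1 and 2, 42.5 CPM in siUsf2 3, and 36.8, 40.8 and 40.4 CPM in siControl 1 to 3. For both genes the groups overlapped, siUsf2 3 was highest, and its Poisson interval covered the whole siControl range. The 5-library log2 fold change was -0.037 for Sesn1 (edgeR adjusted p = 0.854, SE 0.10) and -0.017 for Sesn2 (edgeR adjusted p = 0.947, SE 0.11). In all 6 it was -0.011 for Sesn1 (edgeR adjusted p = 0.968, SE 0.08) and 0.00155 for Sesn2 (edgeR adjusted p = 0.997, SE 0.09). The sign for each of them changed with the normalization and with single libraries left out.

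Among 11 genes of the sestrins and the GATOR complexes, 1 passed as higher and the other 10 passed in neither direction in the 5 libraries, with a median of -0.017 (log2). The 1 that rose was the third sestrin, Sesn3, at 0.31 (edgeR adjusted p = 0.0445, SE 0.10). It was at 211 ± 0.169 CPM in siUsf2 1 and 2 (SD, n = 2), 150.2 CPM in siUsf2 3, and 169 ± 24.0 CPM in siControl (SD, n = 3). Its call ended with DESeq2 (adjusted p = 0.0571), without robust estimation (edgeR adjusted p = 0.0525), and without siUsf2 1 (0.143), siUsf2 2 (0.181), siControl 1 (0.133) or siControl 2 (0.195). Of 18 ATF4 target genes, Sesn2 included, 11 fell and 1 rose in the 5 libraries, with a median of -0.50, and with all 6 libraries 0 were called by edgeR, DESeq2 or limma-voom (4 lower by edgeR at an unadjusted p below 0.05) and the median was -0.23. Examples in the 5 libraries are the pseudokinase Trib3, which fell by 1.26 in log2 units (edgeR adjusted p = 1.33e-07, SE 0.14), and the amino acid transporter Slc7a5, which fell by 0.99 (edgeR adjusted p = 8.27e-08, SE 0.10). In siUsf2 3 Trib3 was at 30.2 CPM, within the siControl range of 29.0 to 38.5 CPM. Slc7a5 was at 307 CPM there, below the siControl range of 386 to 405 CPM. The 1 that rose was the lipoprotein receptor gene Vldlr, at 0.33 (edgeR adjusted p = 0.0327, SE 0.10; chosen after its values were seen). Sesn2 was not among those that fell.

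The other 4 genes act in apoptosis or survival signalling, and none passed the test in the 5 libraries. Phlda3 (ENSMUSG00000041801, chromosome 1 at 135766119 to 135769136, plus strand) encodes a protein made mostly of a pleckstrin homology domain that keeps Akt from membranes. It was at 162 and 159 CPM in siUsf2 1 and 2, 222 CPM in siUsf2 3 (206 to 238), and 179.8, 194 and 132 CPM in siControl 1 to 3. siControl 3 was lowest and siUsf2 3 highest of the 6, and siUsf2 1 and 2 lay between the siControl libraries. Its log2 difference was -0.085 (edgeR adjusted p = 0.72, SE 0.12) in the 5 libraries, and -0.22 (edgeR adjusted p = 0.0355) without siControl 3. In all 6 libraries it was 0.062 (edgeR adjusted p = 0.923, SE 0.19).

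Bax (ENSMUSG00000003873, chromosome 7 at 45461697 to 45466898, minus strand) encodes the BCL2-family protein that forms pores in the outer mitochondrial membrane. It was at 36.6 and 34.0 CPM in siUsf2 1 and 2, 68.8 CPM in siUsf2 3 (60.3 to 78.2), and 39.2, 43.2 and 28.8 CPM in siControl 1 to 3. The pattern over libraries was that of Phlda3, with siControl 3 lowest and siUsf2 3 highest. Its log2 difference was -0.080 (edgeR adjusted p = 0.766, SE 0.13) in the 5 libraries and 0.28 (edgeR adjusted p = 0.831, SE 0.30) in all 6, so siUsf2 3 turned its sign. Of the exon bases of Bax, 12.2% are shared with the overlapping gene model Gm45808 on the same strand, and reads there may have been left out or split. Of 14 BCL2-family genes tested, Bax included, 0 were called by edgeR, DESeq2 or limma-voom in the 5 libraries, with 2 higher and 0 lower at an unadjusted p below 0.05 by edgeR.

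Aen (ENSMUSG00000030609, chromosome 7 at 78895854 to 78911209, plus strand), an exonuclease that enhances apoptosis, was at 41.9 and 39.2 CPM in siUsf2 1 and 2, 38.7 CPM in siUsf2 3 (32.3 to 45.8), and 41.1, 36.1 and 33.4 CPM in siControl 1 to 3. The groups overlapped, and the log2 difference was 0.13 (edgeR adjusted p = 0.518, SE 0.11) in the 5 libraries and 0.085 (edgeR adjusted p = 0.857, SE 0.11) in all 6. Eda2r (ENSMUSG00000034457, chromosome X at 97333840 to 97377216, minus strand) encodes a receptor of the tumour necrosis factor family that binds the ectodysplasin isoform EDA-A2 and has been linked to muscle atrophy. It was at 84.1 and 80.7 CPM in siUsf2 1 and 2, 77.0 CPM in siUsf2 3 (68.0 to 86.9), and 90.9, 92.6 and 102 CPM in siControl 1 to 3. It was the 1 gene of the 10 with every siUsf2 library below every siControl library. Its log2 fold change did not pass, at -0.22 (edgeR adjusted p = 0.127, SE 0.09) in the 5 libraries and -0.27 (edgeR adjusted p = 0.38, SE 0.09) in all 6.

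Read by overlap of levels, 4 of the 10 genes in siUsf2 1 and 2 lay above every siControl library and 1 below, against 21.8% and 19.5% of all genes tested. With siUsf2 3 included, 2 lay above and 1 below, against 11.4% and 11.2%. In siUsf2 3 alone, 6 of the 10 lay above every siControl library, 1 below and 3 within, against 39.6% of genes above and 42.1% below. The 6 were Zmat3, Ccng1, Sesn1, Sesn2, Phlda3 and Bax. The log2 ratio of siUsf2 3 to the siControl mean was 0.89 for Bax, 0.39 for Phlda3, 0.30 for Ccng1, 0.18 for Zmat3 and -0.11 for Trp53inp1, and its median over all genes was -0.02. With TMM scaling these were 0.11 for Zmat3, -0.19 for Trp53inp1 and -0.10 for all genes. Sesn1 and Sesn2, each at 0.11 on library totals, were at 0.036 and 0.033 with TMM scaling. Positions against siControl were counted on library totals only. The ratio of the siUsf2 1 and 2 mean to the same siControl mean was -0.070 for Bax, -0.073 for Phlda3, 0.57 for Ccng1, 0.61 for Zmat3 and 0.57 for Trp53inp1. Both ratios share the siControl libraries. The order of the genes thus differed, Bax and Phlda3 leading in siUsf2 3 and Zmat3, Ccng1 and Trp53inp1 in the other siUsf2 libraries. The share of counts on pseudogenes and the depth differed in the same library, and their part in this was not tested. No pseudogene transcript was paired with any of the 10 genes at 90% identity and 50% coverage or more, so adding pseudogene counts to parent genes left their ratios in siUsf2 3 as they were.

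Trp53, the gene of p53, differed in this respect. It was at 44.5 and 44.2 CPM in siUsf2 1 and 2, 131 CPM in siUsf2 3 (119.6 to 144), and 49.6, 52.0 and 38.7 CPM in siControl 1 to 3. Its processed pseudogene Trp53-ps, which matched it at 94.9% identity, held 84.1 and 89.7 CPM in siUsf2 1 and 2, 0.879 CPM (3 counts) in siUsf2 3, and 102, 107 and 94.9 CPM in siControl 1 to 3. Summed, the pair held 129, 134 and 132 CPM in siUsf2 1 to 3, and 152, 159 and 134 CPM in siControl 1 to 3. The high Trp53 level of siUsf2 3 was thus matched by the near absence of reads on the pseudogene, and the sums of the siUsf2 libraries lay close to that of siControl 3, the lowest of siControl. The log2 difference of Trp53 was -0.087 (edgeR adjusted p = 0.696, SE 0.11) in the 5 libraries, and -0.19 (edgeR adjusted p = 0.163, SE 0.09) with pseudogene counts added. In all 6 it was 0.59 (edgeR adjusted p = 0.743, SE 0.47) without and -0.19 (edgeR adjusted p = 0.454, SE 0.10) with them.

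**Figure D3:**
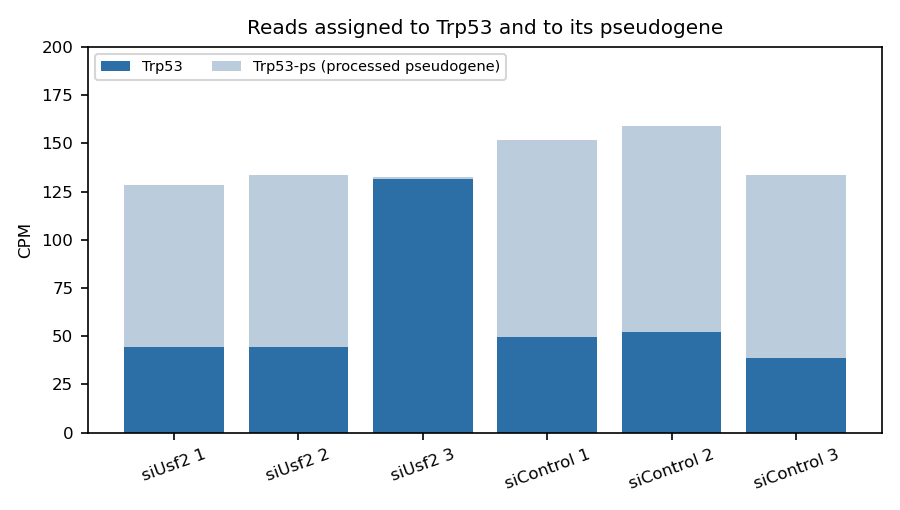
CPM assigned to Trp53 (dark) and to its processed pseudogene Trp53-ps (light) in each library, stacked. The pseudogene takes more CPM than the gene in 5 libraries, and in siUsf2 3 it takes 0.879 CPM while the summed height, 132 CPM, is like that of siUsf2 1 and 2.

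Of 18 tested genes among p53 and its regulators, 1 passed as higher and 17 passed in neither direction in the 5 libraries, with a median of 0.05. The count of higher genes was 0 without siUsf2 1 or siControl 1, 3 without siControl 3, and 2 with limma-voom, without robust estimation or with no filter. Without siUsf2 2, 1 gene was called lower. Over all 16924 genes tested without siControl 3, 1596 were called higher. With all 6 libraries edgeR, DESeq2 and limma-voom each called 0 of the regulators (1 higher by edgeR at an unadjusted p below 0.05). In the 5 libraries the 1 that rose was Mdm4, the partner of Mdm2 that blocks p53 activity, at 266 and 241 CPM in siUsf2 1 and 2, 179.5 CPM in siUsf2 3, and 206, 177 and 216 CPM in siControl 1 to 3. Its log2 fold change was 0.33 (edgeR adjusted p = 0.017, SE 0.09), a call that ended without siUsf2 1 (edgeR adjusted p = 0.241), siControl 1 (0.06) or siControl 2 (0.0862). The level of Mdm4 in siUsf2 3 lay within the siControl range.

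Cdkn1a, the p21 gene left out of the 10, went the other way from Zmat3, Ccng1 and Trp53inp1. It was at 328 CPM in both siUsf2 1 and siUsf2 2, 396 CPM in siUsf2 3, and 713, 757 and 671 CPM in siControl 1 to 3. Its log2 fold change was -1.13 in the 5 libraries (edgeR adjusted p = 7.6e-11, SE 0.09), and with all 6 its value of -1.06 did not pass (edgeR adjusted p = 0.055, SE 0.09).

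Of 30 p53 targets outside the 10, Cdkn1a among them, 4 were called higher and 1, Cdkn1a, lower in the 5 libraries, and 25 passed in neither direction, with a median of 0.07 (log2). Without siControl 3, 2 were called lower. With all 6 libraries 0 were called by edgeR (4 higher and 1 lower at an unadjusted p below 0.05), while the calls were 2 higher and 1 lower by DESeq2 and 1 in each direction by limma-voom. Psrc1, a spindle protein, was at 35.2 ± 0.180 CPM in siUsf2 1 and 2 (SD, n = 2), 37.8 CPM in siUsf2 3, and 14.3 ± 1.74 CPM in siControl (SD, n = 3). It rose by 1.29 in log2 units (edgeR adjusted p = 2.54e-08, SE 0.13), and every siUsf2 library lay above every siControl library. Polk, a translesion DNA polymerase, was at 37.8 ± 0.618 CPM in siUsf2 1 and 2, 25.2 CPM in siUsf2 3, and 24.1 ± 1.15 CPM in siControl. It rose by 0.63 in log2 units (edgeR adjusted p = 2.77e-04, SE 0.11). For Polk siUsf2 3 lay within the siControl range, well below the other siUsf2 libraries. Apaf1, the scaffold of the apoptosome, was at 62.7 ± 1.40 CPM in siUsf2 1 and 2, 56.8 CPM in siUsf2 3, and 41.8 ± 1.25 CPM in siControl. It rose by 0.57 in log2 units (edgeR adjusted p = 1.36e-04, SE 0.10). For Apaf1, as for Psrc1, siUsf2 3 was above every siControl library. The fourth was Gtse1, a G2 and mitosis protein chosen after its values were seen, at 0.36 (edgeR adjusted p = 0.0278, SE 0.11), a call that ended without siUsf2 1 (edgeR adjusted p = 0.208), siUsf2 2 (0.136) or siControl 1 (0.123). Of the 6 myoblast markers, Mymk, Cdh15, Itga7, Des and Myod1 fell and Myf5 rose in the 5 libraries. With all 6 libraries edgeR called 0 of these markers, and DESeq2 and limma-voom each called 1 lower. In siUsf2 3, Mymk (80.2 CPM) and Cdh15 (234 CPM) lay below every siControl library. Itga7 (804 CPM) and Myf5 (33.1 CPM) lay above every siControl library there, and Des and Myod1 within their range. The part of the marker shift in the p53 target values was not tested.

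**Figure D4:**
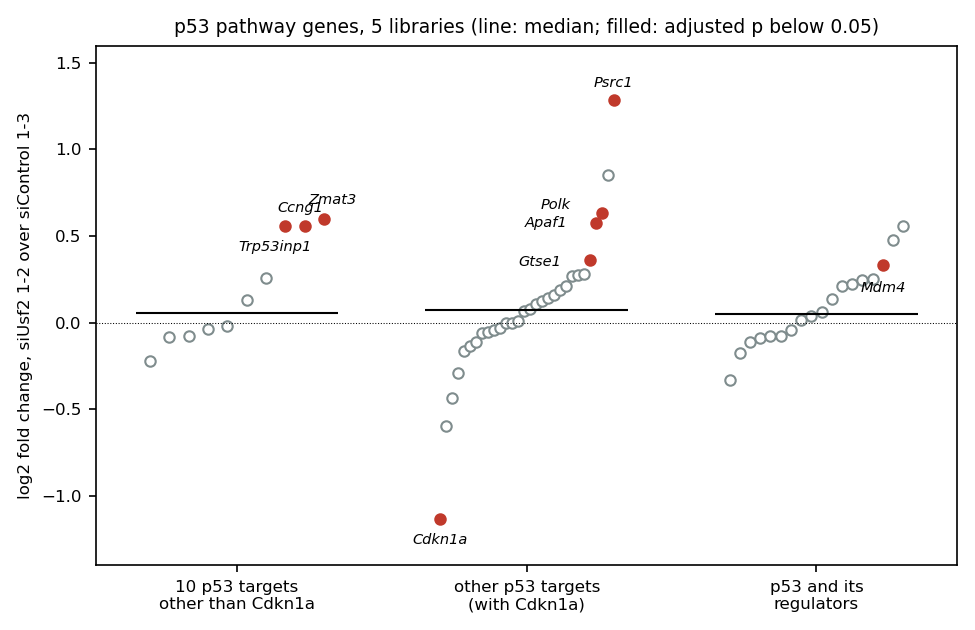
Log2 fold change of siUsf2 1 and 2 over siControl 1 to 3 for the 10 genes, for 30 other p53 targets and for 18 tested genes among p53 and its regulators, ordered by value within each list; horizontal lines are medians (0.06, 0.07 and 0.05) and filled, named points have an edgeR adjusted p below 0.05. Most points of each list lie near 0, with Psrc1 at 1.29 the highest and Cdkn1a at -1.13 the lowest.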

How the data were processed

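The deposited table holds whole-number read counts per mouse Ensembl gene, not normalized, made by the authors from 6 libraries. FastQC, Trimmomatic, HISAT2, featureCounts, DESeq2 and the build mm10 appear in the submitters' processing notes; the sources used here give no version, strand setting or annotation. Another table, repeating these counts scaled to column totals, was not used. Symbols, positions and exon lengths came from GENCODE M21 (GRCm38).

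Differences were tested on counts with edgeR 4.0.16 in R 4.3.3 (filterByExpr, TMM, robust glmQLFit and glmQLFTest, two-sided, Benjamini-Hochberg over all genes tested). An SE is the log2 fold change divided by the square root of its F statistic. CPM used library totals; a count of 0 allows up to 3 counts, 0.169 to 0.879 CPM. Alternatives were RLE, upper-quartile or no normalization factors, DESeq2 1.42.0, limma-voom (limma 3.58.1), no robust estimation, other filters, a replicate block, each library left out, and pseudogene counts added to parents (transcripts matched by minimap2 2.31 over 150 bases or more, at 90% identity and 50% coverage or above). Named genes are the 10, Usf2, Cdkn1a, Trp53, Mdm4 and up to 4 called genes per list by p. Alternatives for the p53 lists, for list genes and for Trp53 with its pseudogene were added after seeing the data. Genes and lists were chosen with earlier results of these data known.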

Additional observations from a re-analysis of the deposited data

How the results depend on the processing

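In the 5 libraries the calls of Zmat3, Ccng1 and Trp53inp1 and their direction were the same under all 15 alternatives, with log2 fold changes of 0.56 to 0.64, 0.50 to 0.61 and 0.50 to 0.59; Mdm2 was also called with upper-quartile normalization, the replicate block or without siControl 3. The count of lower genes among the 10 went to 1 with the replicate block and ranged from 0 to 1 with single libraries left out. Over all genes, 3989 were called with the replicate block and 868 to 3560 with single libraries left out. With all 6 libraries, 0 of the 10 were called higher under each alternative other than leaving out libraries, where the range was 0 to 3; over all genes, 4 were called with RLE normalization, 0 with upper-quartile normalization, 3 with library totals alone, 706 with DESeq2, 104 with limma-voom, 116 with no filter, 4 with at least 1 CPM in 3 libraries, 0 with the replicate block, 189 with pseudogene counts added, and 0 to 1957 with single libraries left out. Among the single libraries left out of the 6, only siUsf2 3 gave any call, with 3 of the 10 higher and 1957 over all genes. That fit is the 5-library fit, and leaving out any other single library gave 0. The cause was not tested.

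Some signs turned. In the 5 libraries, Sesn1 was at 0.00057 with upper-quartile normalization and Sesn2 at 0.020 there and at 0.0072 with the replicate block. With single libraries left out, Sesn1 ranged from -0.073 to 0.0064, Sesn2 from -0.12 to 0.077, Phlda3 from -0.22 to 0.026 and Bax from -0.22 to 0.042. In all 6, Sesn1 was at 0.032 with upper-quartile normalization and 0.024 with library totals alone, and Sesn2 at -0.0056 with DESeq2, -0.0078 with limma-voom and -0.026 with no filter. With single libraries left out in all 6, Sesn1 ranged from -0.040 to 0.029, Sesn2 from -0.047 to 0.060, Phlda3 from -0.085 to 0.17 and Bax from -0.080 to 0.45. With pseudogene counts added Trp53 was at -0.19 in all 6, against 0.59 without. With TMM scaling the log2 ratio of siUsf2 3 to siControl was -0.0094 for Aen, 0.11 for Zmat3, 0.036 for Sesn1, 0.033 for Sesn2, -0.10 for Mdm2 and -0.19 for Trp53inp1.

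Deviations of same-numbered libraries from their group means correlated at -0.07, 0 and -0.07. The siUsf2 means include siUsf2 3, which stood apart, so these values cannot decide whether the replicate numbers pair the libraries. With the replicate block in the 5 libraries Mdm2 was at 0.32 (edgeR adjusted p = 0.00173) and Phlda3 at -0.23 (edgeR adjusted p = 0.0186). There siControl 3 has no partner and adds nothing to the fold changes. The block and the fit without siControl 3 are therefore largely the same alternative. Of the 30 other p53 targets, 3 were called lower with the block and 2 without siControl 3, against 1. Of the 18 genes among p53 and its regulators, 5 were called higher with the block and 2 with limma-voom, without robust estimation or with no filter, against 1. Over all 17217 genes tested the block called 1719 higher and 2270 lower. The shallow siUsf2 3 limits single-library values, as the interval of 60.3 to 78.2 CPM for Bax shows.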
